A study of Mus musculus with 36 samples.

Results

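The miR-30 family is a set of microRNAs (miRNAs) that share a stretch of bases at the 5′ end of their guide strand. Its members were taken by name, as every row of the miRNA table called miR-30a to miR-30f with any hairpin number and arm, and 8 of the 469 miRNAs in the table met this rule. They are 4 mature sequences from the 5′ arm of their hairpins (mmu-miR-30b-5p, mmu-miR-30c-5p, mmu-miR-30d-5p and mmu-miR-30e-5p) and 4 from the 3′ arm (mmu-miR-30b-3p, mmu-miR-30c-1-3p, mmu-miR-30d-3p and mmu-miR-30e-3p). Both miR-30a arms, miR-30c-2-3p and miR-30f had no row in the table and were not analysed here. The values were log2 values that the authors had normalised, so a difference of 1 is a doubling.

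The samples came from B3, a mouse line that models an early pre-B cell (pre-BI) and moves towards the next stage (pre-BII) when the lymphocyte transcription factor Ikaros enters the nucleus. The Ikaros line carried a retroviral MSCV vector for haemagglutinin-tagged Ikaros joined to ERt2, an estrogen receptor domain that binds hormone (HA-Ikaros-ERt2-IRES-GFP), and the control line carried the ERt2-IRES-GFP vector without Ikaros. Both lines were sorted on GFP and sampled at 0, 2, 6, 12, 18 and 24 h, which gave 12 groups of 3 replicates. 4-OHT (4-hydroxy-tamoxifen), which releases ERt2 fusions into the nucleus, is listed at 0.5 uM for all 36 samples, although according to the methods the cells of 0 h had not been treated. Replicates are numbered 1, 2 and 4, and at a given time the same number in both lines stands for a shared culture batch. The 0 h samples came from other culture batches than the later ones, so a change from 0 h within a line cannot be told apart from culture batch, and at 2 h to 18 h the lines were largely sequenced in separate batches, which the authors corrected for.

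A miRNA is cut from a hairpin-shaped precursor, and one of its arms is loaded into an Argonaute protein as the guide. Bases 2 to 8 of the guide, the seed, do most of the pairing with target mRNAs, so miRNAs with the same seed are grouped into a family. The miR-30 5p arms are known for restraining proliferation and for roles in differentiation of several tissues, B cells included, whereas the 3p arms have other seeds and are usually treated as the passenger strand. Hairpins of the family lie in pairs a few kilobases apart or in a common locus.

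The sequences below show which members can bind the same targets and which ones a short read could confuse. They are the mature sequences in RefSeq (GRCm38.p6), written 5′ to 3′ with the seed in capitals. The reference held 4 of the 8 members, and 2 miR-30a arms and miR-30c-2-3p, which are no members, are printed for comparison. No entry was found for the arms of miR-30b and miR-30d, which are named only.
mmu-miR-30c-5p: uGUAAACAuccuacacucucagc
mmu-miR-30e-5p: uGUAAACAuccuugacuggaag
mmu-miR-30a-5p: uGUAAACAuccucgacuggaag
mmu-miR-30e-3p: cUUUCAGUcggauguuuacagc
mmu-miR-30a-3p: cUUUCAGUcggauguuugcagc
mmu-miR-30c-1-3p: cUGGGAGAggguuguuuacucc
mmu-miR-30c-2-3p: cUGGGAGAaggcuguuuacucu

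The 5p arms shown shared the seed GUAAACA, and miR-30e-3p and miR-30c-1-3p had the seeds UUUCAGU and UGGGAGA. Among the 391 of 469 miRNAs of the table with a RefSeq sequence, no miRNA outside the family had one of these 3 seeds. With positions counted from 1 at the 5′ end and the first-named miRNA as the reference, miR-30a-5p and miR-30e-5p differed by C13U alone, and miR-30a-3p and miR-30e-3p by G18A alone. MiR-30c-5p and miR-30e-5p differed by 5 bases, A13U, C14G, C18G, U19G and C20A, all of them 3′ of the seed. Reads of miR-30e could therefore be shared with miR-30a, depending on how the aligner placed reads with a mismatch, and the values of both miR-30e arms are uncertain in this respect. Whether this moved them was not tested. The arms of miR-30b and miR-30d had no sequence in the reference, so their likeness to miR-30a could not be checked.

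By name in the GENCODE vM21 annotation of GRCm38, Mir30c-1 (chr4:120769534-120769622) and Mir30e (chr4:120772606-120772697) lie on the minus strand in an intron of Nfyc, with starts 3072 bp apart. Nfyc encodes a subunit of the transcription factor NF-Y. Mir30b (chr15:68337415-68337510) and Mir30d (chr15:68341208-68341289) lie 3793 bp apart on the minus strand. Mir30d overlaps an exon of Gm20732, a gene for a long non-coding RNA, whereas no gene on that strand contains Mir30b. MiR-30c-5p is also made from Mir30c-2 (chr1:23291701-23291784, plus strand), within a non-coding gene, Gm27028, an exon of which it overlaps, and the values cannot separate the products of the 2 hairpins.

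The labelled cell type was checked against marker miRNAs. MiR-181a-5p and miR-142-5p, which are abundant in lymphocytes and blood cells, had means of 18.15 and 14.62 over the 36 samples and ranked 2 and 8 of the 469. MiR-150-5p, a miRNA of mature lymphocytes, had a mean of 3.90, and the myeloid miR-223-3p had 2.11. MiR-9-5p, listed as a neural marker, was high at 13.30. Of 14 marker names listed, 7 were in the table. The list gives both arms of miR-142 also under the name miR-142a, so not every absent name is an absent marker. In these bulk samples, fewer cells of a type and less RNA per cell cannot be told apart.

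The means of the members ran from 1.78 to 11.83 on the log2 scale, and the abundant ones were not all of the same arm. Mature miRNAs are of nearly equal length (22 or 23 bases for the members with a sequence), so levels are compared without a length correction. Whether other differences between sequences, such as GC content and the authors' adjustment for it, moved these levels was not tested. MiR-30b-5p was the most abundant member, with a lowest value of 11.06, a median of 11.83 and a highest of 12.48 over the 36 samples, and its mean ranked 31 of 469. MiR-30e-3p followed with 10.51, 11.13 and 11.88 (rank 43), and miR-30c-5p with 9.62, 10.35 and 11.07 (rank 62). The ranges of these neighbours overlapped.

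The remaining 3p arms were of intermediate level. MiR-30d-3p ran from 8.61 to 9.49 with a median of 9.09 (rank 82), miR-30c-1-3p from 7.55 to 8.59 with a median of 8.05 (rank 94), and miR-30b-3p from 6.08 to 7.11 with a median of 6.47 (rank 139). None of these 3 ranges overlapped another. The 5p arms of miR-30d and miR-30e were in the lower part of the table. MiR-30d-5p ran from 2.06 to 3.32 with a median of 2.66 (rank 298). MiR-30e-5p ran from 0.90 to 3.02 with a median of 1.74 (rank 356), and these ranges overlapped. On the linear scale miR-30b-5p made up 73.8% of the summed 5p arms on average and miR-30c-5p 25.9%, against 0.135% for miR-30d-5p and 0.0748% for miR-30e-5p. The 4 5p arms together held 0.175% to 0.518% of a sample's linear total.

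**Figure D1:**
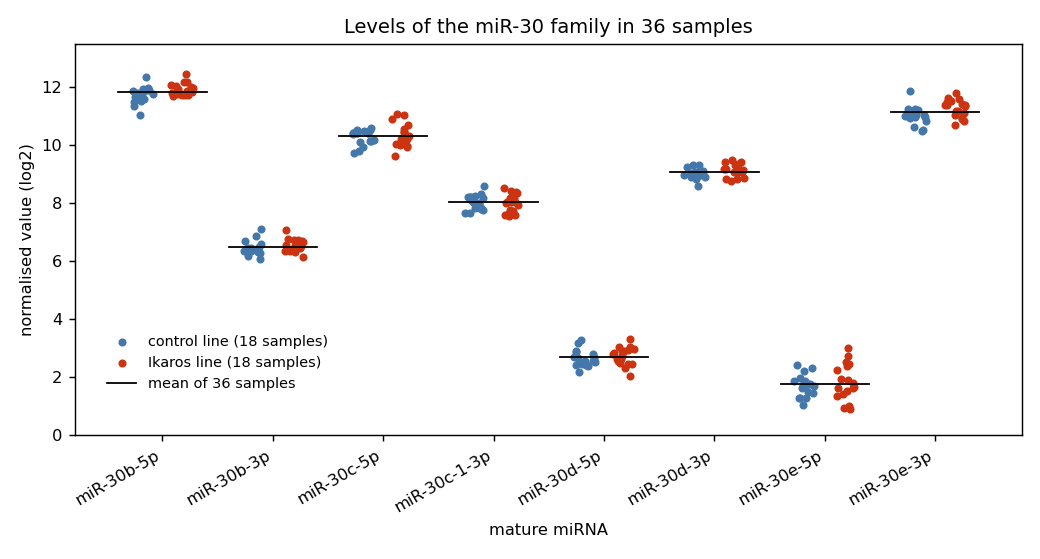
Normalised log2 values of the 8 miR-30 members (x axis) in 18 control and 18 Ikaros samples (points), with the mean of all 36 as a bar. MiR-30b-5p, miR-30e-3p and miR-30c-5p lie above 9, and miR-30d-5p and miR-30e-5p lie below 4.

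The spread between replicates was small for most members. The SD within groups was 0.17 for miR-30d-3p, and 25 of the 469 miRNAs had a lower one. It was 0.24 to 0.30 for the other members except miR-30e-5p, at 0.35, against a median of 0.36 over the table. Across the 36 samples, deviations from the group means went together most in miR-30b-5p and miR-30c-5p (r = 0.69), which come from different chromosomes, and in the neighbours miR-30e-3p and miR-30c-1-3p (r = 0.62). For the arms of one hairpin r was 0.58 in miR-30e, -0.0056 in miR-30d and -0.29 in miR-30b. These correlations are a description, since members of a sample share its library and normalisation.

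The arm with the higher value differed between hairpins of the family. In each sample the 3p value was subtracted from the 5p value for the 129 hairpin names with both arms in the table, of which 49 (38.0%) had the 3p arm higher on average. MiR-30b had the 5p arm higher, by 5.33 on the log2 scale on average (3.94 to 6.18 over the 36 samples). MiR-30d had the 3p arm higher, with a difference of -6.40 (-7.22 to -5.56), and miR-30e had a difference of -9.38 (-10.64 to -8.41). Only 1 of the 129 hairpin names, miR-22, was further to the 3p side than miR-30e, and 8 were further than miR-30d. MiR-30c-5p exceeded miR-30c-1-3p by 1.56 to 2.89, although the 5p arm has a further hairpin as a source. The 5p values of miR-30d and miR-30e were in the lower part of the table. The doubt about reads shared with miR-30a bears on the miR-30e difference, and it could not be checked for miR-30d. Its part in these differences was not tested.

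**Figure D2:**
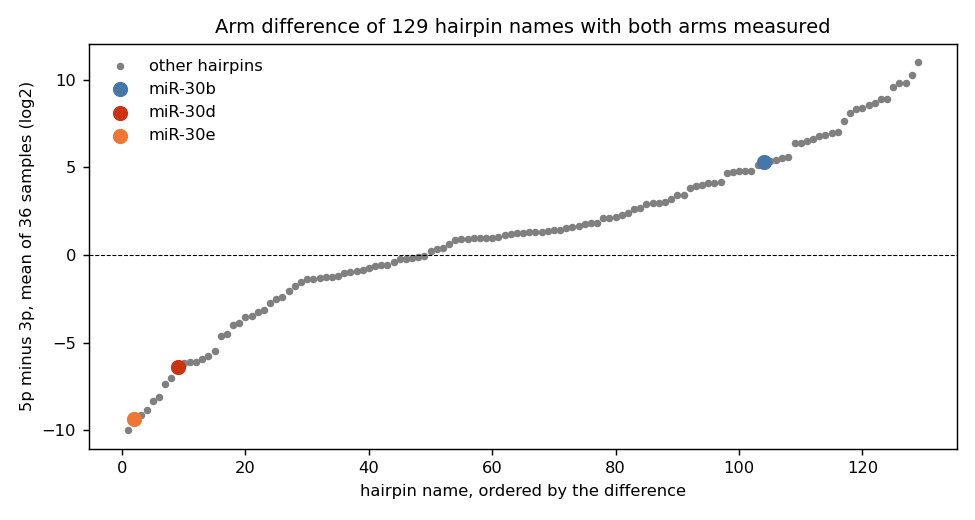
Mean difference of the 5p minus the 3p arm (y axis, log2, 36 samples) for 129 hairpin names ordered by it (x axis). MiR-30e (-9.38) and miR-30d (-6.40) lie at the 3p end and miR-30b (5.33) lies on the 5p side.

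The lines were first compared at 0 h, which asks how they differed before induction. By limma with Benjamini-Hochberg adjustment over the 469 miRNAs, 0 of the 8 members passed an adjusted p of 0.05, and 0 had an unadjusted p under it, where 8.53% of all miRNAs were called. The differences between the Ikaros and the control line ran from -0.31 (miR-30c-1-3p) to 0.16 (miR-30b-3p), and the latter was -0.092 after quantile normalisation. MiR-30e-5p was the one member whose groups did not overlap, with 1.34, 1.54 and 1.66 in the Ikaros line against 1.70, 1.75 and 1.98 in the control line (difference -0.29, adjusted p = 0.780). Over all miRNAs the groups did not overlap for 26.2%.

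The comparisons at 2 h to 18 h ask what differed while Ikaros was nuclear, against cells given the same drug. At these times the lines were largely sequenced in separate batches, and the part of this in the differences was not tested. At 2 h, 0 of 8 members were called and 0 at an unadjusted p under 0.05 (background 11.3%). MiR-30b-5p was 11.98, 11.86 and 11.94 in Ikaros samples and 11.62, 11.36 and 11.74 in the control line, without overlap (difference 0.36, SE 0.21, adjusted p = 0.299). It was the 1 member of 8 without overlap, against 26.0% of all miRNAs. At 6 h, 0 of 8 were called and 1 had an unadjusted p under 0.05 (background 15.1%). That member was miR-30e-3p, with 11.65, 11.04 and 11.41 against 11.02, 10.55 and 10.85 (difference 0.56, SE 0.23, adjusted p = 0.117). Its groups did not overlap, nor did those of miR-30b-3p, 2 of 8 members against 34.3% of all miRNAs.

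At 12 h, 1 of 8 members was called, where 21.7% of all miRNAs were. MiR-30e-5p was 1.00, 0.90 and 0.95 in Ikaros samples and 1.86, 2.31 and 1.05 in the control line (difference -0.79, SE 0.29, adjusted p = 0.0499). The Ikaros samples were the lowest of their line and lay just below the lowest control sample. This was 1 of 8 members without overlap, against 25.6% of all miRNAs. The call was lost with the replicate block (adjusted p = 0.0648), without replicate 1 (-0.76, adjusted p = 0.174), without replicate 2 (-0.48, adjusted p = 0.461), with the sample medians subtracted (adjusted p = 0.115) and with only the groups compared in the fit (adjusted p = 0.281). MiR-30b-5p differed by 0.41 at this time (SE 0.21, adjusted p = 0.162), and by 0.23 without replicate 2 (adjusted p = 0.618).

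At 18 h, 0 of 8 members were called and 2 had an unadjusted p under 0.05, where 29.9% of all miRNAs were called. MiR-30e-3p was 11.53, 11.50 and 11.40 in Ikaros samples and 11.23, 10.98 and 10.51 in the control line, without overlap (difference 0.57, SE 0.23, adjusted p = 0.0656). MiR-30d-3p did not overlap either (difference 0.19, adjusted p = 0.402), which made 2 of 8 members against 47.5% of all miRNAs. MiR-30e-5p was 1.92, 2.73 and 1.95 against 2.203, 1.29 and 1.28, with overlap (difference 0.61, adjusted p = 0.117). MiR-30e-3p came past the threshold in 3 of 9 alternatives, among them the subtraction of sample medians (0.74, adjusted p = 0.0368). MiR-30e-5p did so in 1 of 8, without replicate 1 (1.06, adjusted p = 0.0434), and fell to 0.19 without replicate 2 (adjusted p = 0.814).

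At 24 h miR-30e-5p was higher in the Ikaros line, and the other members did not pass the test. It was 3.02, 2.53 and 2.47 in Ikaros samples and 1.47, 1.30 and 1.73 in the control line. All 3 Ikaros samples were above every control sample, by a difference of 1.17 on the log2 scale (SE 0.29, 95% interval 0.58 to 1.77, adjusted p = 0.00194), or 2.25-fold. The call held in all 8 alternatives that kept this miRNA in the table, with differences of 0.98 to 1.40. It is among the low values of the table, and a filter on a mean log2 value under 2 removes it.

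Thus 1 of 8 members was called at 24 h and 2 had an unadjusted p under 0.05, where 39.9% of all miRNAs were called (84 higher and 103 lower). The median difference was 0.17 over the members and -0.066 over the table. MiR-30c-5p, the second 5p arm in abundance, was 11.05, 11.07 and 10.69 in Ikaros samples and 10.49, 10.42 and 10.38 in the control line. The groups did not overlap, and the difference of 0.51 (SE 0.22, 95% interval 0.06 to 0.96) had an adjusted p of 0.0668. It came past the threshold in 5 of 9 alternatives, among them the replicate block (adjusted p = 0.0471) and the subtraction of sample medians (0.74, adjusted p = 0.00551). It did not without replicate 1 (0.48, adjusted p = 0.203) or without replicate 2 (0.44, adjusted p = 0.334).

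MiR-30d-5p was 3.32, 2.92 and 3.06 in the Ikaros line at 24 h and 2.81, 2.69 and 2.43 in the control line, also without overlap (difference 0.46, SE 0.25, adjusted p = 0.146). It was called with the sample medians subtracted (0.69, adjusted p = 0.0496). The sample medians of the Ikaros line were lower by 0.23 at 24 h, and that alternative raises every difference by this amount. Over all miRNAs 54.2% did not overlap at this time.

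The most abundant guide strand did not pass the test at 24 h. MiR-30b-5p was 11.85, 12.06 and 11.72 in Ikaros samples and 11.76, 11.80 and 12.36 in the control line, which overlapped (difference -0.09, 95% interval -0.52 to 0.33, adjusted p = 0.740). The sign turned with the sample medians subtracted (0.14) or without replicate 4 (0.18). The 3p arms differed by -0.10 (miR-30b-3p), 0.079 (miR-30c-1-3p), 0.14 (miR-30d-3p) and 0.20 (miR-30e-3p), with adjusted p values of 0.530 to 0.803. Of these, miR-30b-3p was at 0.13 with the sample medians subtracted, and miR-30c-1-3p at -0.060 after quantile normalisation and -0.074 without replicate 2.

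**Figure D3:**
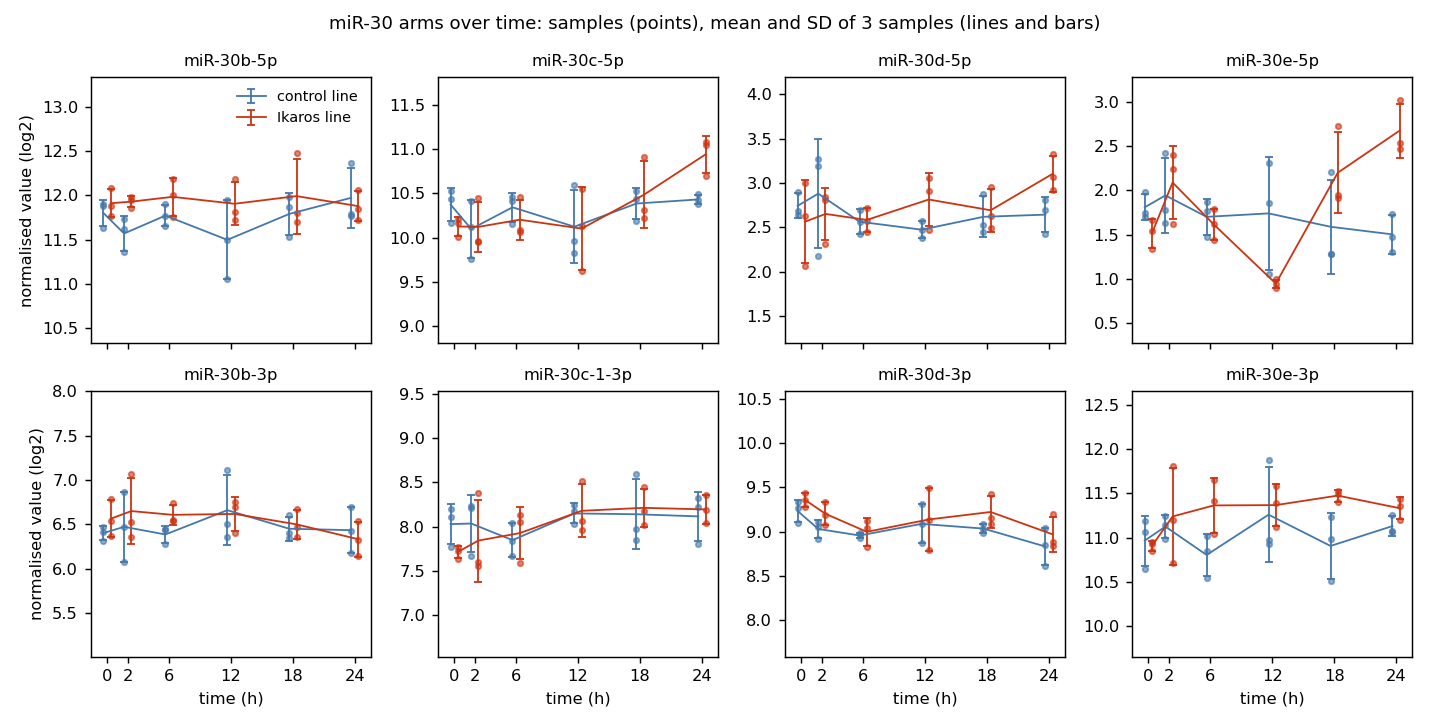
Normalised log2 value (y axis) against time in h (x axis) for the 5p arms (top row) and 3p arms (bottom row), with points for samples and lines and bars for the mean and SD of 3 samples per line. Every panel spans 3 log2 units. The Ikaros samples of miR-30e-5p lie at 0.90 to 1.00 at 12 h and at 2.47 to 3.02 at 24 h, and those of miR-30c-5p at 10.69 to 11.07 at 24 h.

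Whether the lines differed more at 24 h than at the start was tested as a difference of differences. Against 0 h, 1 of 8 members was called and 2 had an unadjusted p under 0.05, where 12.37% of all miRNAs were called. This was miR-30e-5p, with 1.47 (SE 0.41, adjusted p = 0.0152). The size held without replicate 1 (1.25) and without replicate 2 (1.48), but the adjusted p was then 0.182 and 0.134. MiR-30c-5p had 0.76 (SE 0.31, adjusted p = 0.116), miR-30d-5p 0.64 (adjusted p = 0.253) and miR-30b-5p -0.20 (adjusted p = 0.681), and the last was 0.10 without replicate 4.

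Against 2 h, which shares its culture batches with 24 h, 0 of 8 members were called and 1 had an unadjusted p under 0.05 (background 14.3%). MiR-30e-5p had 1.03 (SE 0.41, adjusted p = 0.0892). At 2 h, however, the lines were largely sequenced in separate batches, and the part of this in the values was not tested. Over all 6 times, the interaction of line and time was called for 1 of 8 members, where 13.0% of all miRNAs were called. It was again miR-30e-5p (moderated F = 5.63, adjusted p = 0.0121), and the call was lost without replicate 1 (F = 3.95, adjusted p = 0.162) and without replicate 2 (F = 2.39, adjusted p = 0.504).

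**Figure D4:**
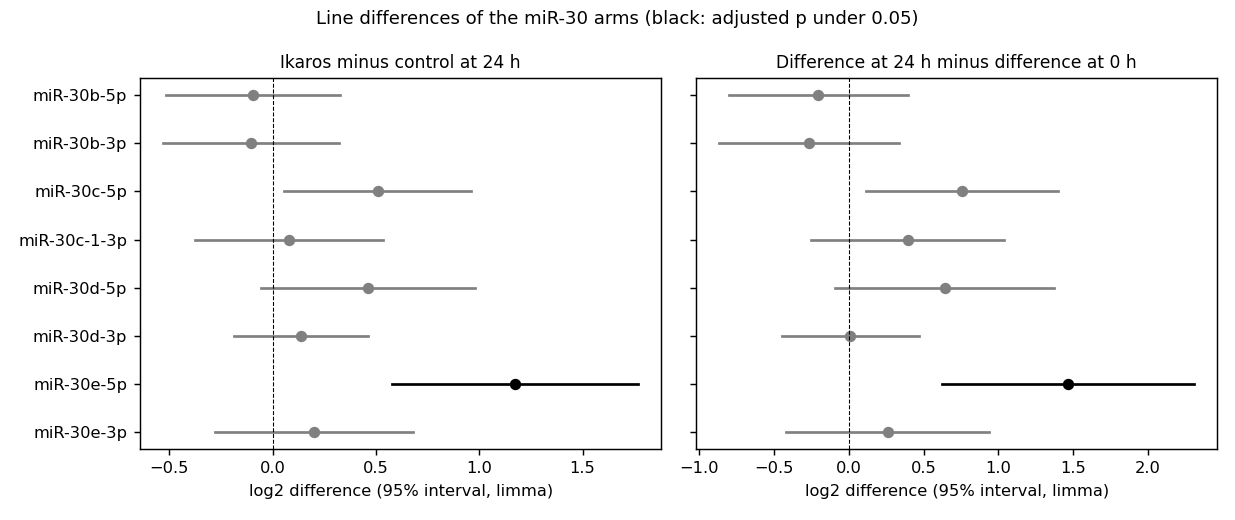
Ikaros minus control at 24 h (left) and that difference minus the one at 0 h (right), on the log2 scale (x axis), for the 8 members (y axis), with 95% intervals from limma. Black marks an adjusted p under 0.05, which miR-30e-5p alone has, with 1.17 and 1.47.

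Within the Ikaros line, miR-30c-5p rose between 2 h and 24 h. It was 9.95, 9.97 and 10.45 at 2 h and 11.05, 11.07 and 10.69 at 24 h, a rise of 0.82 (SE 0.22, adjusted p = 0.00589). This was 1 of 8 members, where 28.6% of all miRNAs were called. At 2 h the lines were largely sequenced in separate batches, and the part of sequencing batch in this rise was not tested. The rise was 0.68 without replicate 1 (adjusted p = 0.103) and 0.67 without replicate 2 (adjusted p = 0.185). MiR-30e-5p differed by 0.59 over the same interval (adjusted p = 0.134), or by 0.18 without replicate 1 (adjusted p = 0.795). MiR-30b-5p differed by -0.051 (adjusted p = 0.893), the latter with a sign that turned under the sample medians subtracted (0.14) or without replicate 4 (0.033). In the control line 0 of 8 members were called, 0 had an unadjusted p under 0.05, and 0% of all miRNAs were called (33 of 469 at an unadjusted p under 0.05). There miR-30c-5p differed by 0.33 and miR-30b-5p by 0.40, with adjusted p values of 0.665 and 0.659, and miR-30c-5p by 0.17 without replicate 2. The rise of miR-30c-5p in the Ikaros line beyond that in the control line was 0.48 (adjusted p = 0.312).

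The balance of the 2 abundant 5p arms was followed within samples, a measure chosen after the values were seen and given without a test. MiR-30c-5p minus miR-30b-5p averaged -1.78 ± 0.12 (SD, n = 3) in the Ikaros line at 0 h and -1.43 ± 0.06 in the control line. At 24 h it averaged -0.94 ± 0.12 in Ikaros samples and -1.54 ± 0.38 in the control line. On average the Ikaros line was lower from 0 h to 18 h and higher at 24 h. As a share of the summed 5p arms on the linear scale, miR-30c-5p was 22.5% ± 1.44 at 0 h and 34.2% ± 1.92 at 24 h in Ikaros samples, against 27.1% ± 0.90 and 25.7% ± 4.83 in control samples. The summed 5p arms themselves were 12.49 ± 0.18 at 24 h in Ikaros samples and 12.41 ± 0.24 in the control line on the log2 scale.

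**Figure D5:**
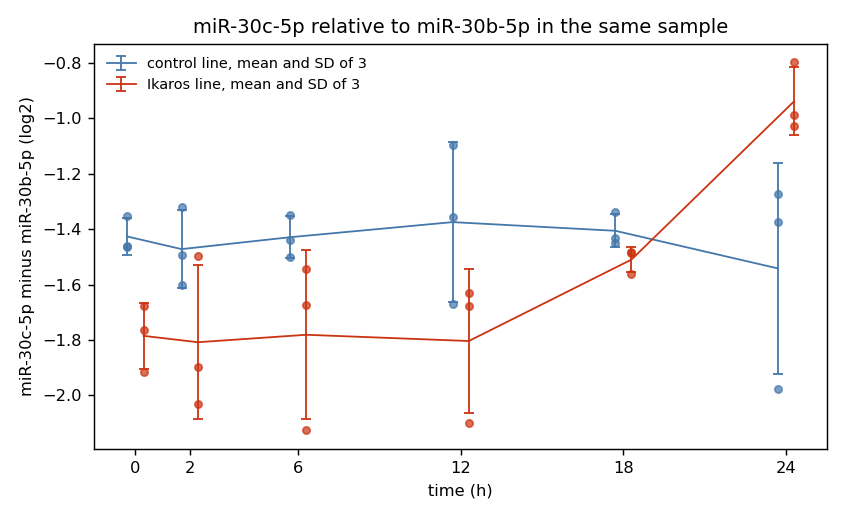
MiR-30c-5p minus miR-30b-5p in the same sample (y axis, log2) against time in h (x axis), with points for samples and lines and bars for the mean and SD of 3 samples per line. The Ikaros line lies below the control line on average from 0 h to 18 h and above it at 24 h (-0.94 against -1.54).

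The arms of a hairpin were also compared within samples, which removes any change that both arms share. At 24 h, 1 of the 3 miR-30 hairpins with both arms under the same name was called for a line difference in 5p minus 3p, where 11.6% of the 129 hairpin names were. In miR-30e the 5p arm was higher relative to the 3p arm in the Ikaros line by 0.97 (SE 0.26, adjusted p = 0.0104). The difference was 0.86 without replicate 1 (adjusted p = 0.130) and 0.99 without replicate 2 (adjusted p = 0.108). For miR-30d it was 0.32 (SE 0.29, adjusted p = 0.541) and for miR-30b 0.0082 (SE 0.33, adjusted p = 0.992). The miR-30b value turned negative without replicate 1 (-0.11) and without replicate 2 (-0.18). In miR-30e the line differences at 24 h were 1.17 for the 5p arm and 0.20 for the 3p arm. Its arm call thus largely repeats the call of miR-30e-5p. That 5p arm is among the low values of the table, and the doubt about reads shared with miR-30a bears on it.

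Direction was also counted over the 18 same-batch pairs of samples, without a test. The Ikaros sample was the higher one in 15 pairs for miR-30b-5p and miR-30d-3p, in 13 for miR-30e-3p, in 12 for miR-30b-3p and miR-30d-5p, in 9 for miR-30c-5p, in 8 for miR-30c-1-3p and in 7 for miR-30e-5p. The member with the largest difference at 24 h was therefore lower in the Ikaros line in most pairs of the whole series.

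Other miRNAs known for restraining growth or favouring differentiation give a setting for the family. Of 20 listed (let-7, miR-15/16, miR-26, miR-29, miR-34a and miR-101 members), 17 were in the table, and at 24 h 6 were called higher and 2 lower in the Ikaros line. Their median difference was 0.13. Over all 469 miRNAs 84 were called higher and 103 lower (39.9% in all), and the median was -0.066. MiR-29c-3p differed by 1.71 (adjusted p = 2.8e-09) and miR-26a-5p by 1.20 (adjusted p = 1.4e-08), whereas miR-34a-5p was lower, at -0.90 (adjusted p = 0.000103). The list was chosen with results of these data known.

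The miRNAs most like the summed 5p arms across the 36 samples, among 461 compared, were miR-29a-5p (r = 0.68), miR-23b-3p (0.67), miR-15a-5p (0.61), miR-3069-5p (0.61) and miR-450a-5p (0.59). These correlations describe samples that share line, time and library, and miR-30b-5p sets most of the sum.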

How the data were processed

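Small RNA libraries (TruSeq Small RNA kit) of 36 samples in 12 groups were used, with 3 replicates per group. The authors deposited log2 values. According to their methods, Novoalign placed the reads on the mouse sequences of miRBase and multiBamCov counted them. NOISeq then filtered out miRNAs with few CPM, cqn adjusted for GC content, TMM scaled the samples and ComBat adjusted for the sequencing batch, after which technical replicates were averaged. Versions are not given in the sources used here. All 36 columns matched a sample by line, time and replicate. The table holds no counts, so the depth of each sample cannot be read from it, and no counting interval was computed. The precision rests on the spread between the 3 replicates of a group, which the main fit pooled over the 12 groups for each miRNA.

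The values as deposited entered limma 3.58.1 in R 4.3.3 (lmFit, eBayes with a mean-variance trend) with 1 mean per group. Line differences at each time, their change, the change from 2 h to 24 h and a moderated F-test of line by time were tested two-sided and adjusted by Benjamini-Hochberg over 469 miRNAs, with 0.05 as the threshold. Arm differences were tested likewise over 129 hairpin names. The fit was tested on simulated data. Family sums and shares used 2 to the power of the value. Sequences came from RefSeq tables and hairpin positions from GENCODE vM21 by name. Python 3.11.15, pandas 2.3.3 and matplotlib 3.10.9 were used for values and figures.

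By rule, the named miRNAs are all members and the 5 others most correlated with the summed 5p arms. Markers and miRNAs of the growth list are named from their fixed lists. Those of either list that are given with values, and miR-22, were chosen after their values were seen. The members and lists were chosen with earlier results of these data known. Pairing comes from the culture batch in the labels. Deviations of the 18 same-batch pairs correlated by 0.26 over all, from -0.05 to 0.61 per pair, and 14 were over 0.1. Alternatives were subtraction of sample medians, quantile normalisation, removal of miRNAs with a mean under 2, no variance trend, only the groups compared, the culture batch as replicate block, and leaving out each replicate number.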

Additional observations from a re-analysis of the deposited data

Results flagged for a closer look

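The line difference of miR-30e-5p changed between 0 h and 24 h by 1.47 on the log2 scale (limma, adjusted p = 0.0152), from -0.29 at 0 h to 1.17 at 24 h. Its line difference also varied over the 6 times (moderated F = 5.63, adjusted p = 0.0121), with -0.79 at 12 h. Both calls were lost without replicate 1 and without replicate 2, and a filter on low values removes this miRNA. Against 2 h the change was 1.03 and was not called (limma, adjusted p = 0.0892). In both lines the culture batches of 0 h were not those of 24 h, and the part of this in either value was not tested. Nor was that of sequencing batch, which largely differed between the lines at 2 h to 18 h. Groups of 3 are too small for a check of single samples that stand apart.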

How the results depend on the processing

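The results were recomputed under up to 9 alternatives. Counts of called members stayed the same at 0, 2 and 6 h, beyond 2 h and within the control line under every alternative run. At 12 h the 1 called member became 0 with the sample medians subtracted, the low values removed, only the groups compared or the replicate block, and 0 to 1 leaving out a replicate. At 18 h the 0 became 1 with the medians subtracted, quantile normalisation or only the groups compared, and 0 to 1 leaving out a replicate. At 24 h the 1 became 3 with the medians subtracted, 2 with quantile normalisation, only the groups compared or the replicate block, 0 with the low values removed, and 1 to 2 leaving out a replicate. Beyond 0 h the 1 became 2 with the medians subtracted or only the groups compared, 0 with the low values removed, and 0 to 1 leaving out a replicate. The rise in the Ikaros line gave 0 to 2 leaving out a replicate, the interaction 0 with the low values removed and 0 to 1 leaving out a replicate, and the arm difference 0 to 1 leaving out a replicate. The replicate block changed no other call. Removing low values takes out 128 miRNAs, miR-30e-5p among them. The counts over all miRNAs also moved, from 102 to 18 at 12 h with only the groups compared, from 58 to 12 beyond 0 h and from 61 to 18 in the interaction without replicate 1, and to 34, 23 and 11 without replicate 2.

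Signs turned for values that were not called. With the medians subtracted miR-30b-5p was 0.14 and miR-30b-3p 0.13 at 24 h, miR-30b-5p was 0.14 for its change in Ikaros samples between 2 h and 24 h, and with quantile normalisation miR-30c-1-3p was -0.060 at 24 h. At 0 h miR-30b-3p was -0.092 with quantile normalisation. Leaving out a replicate gave -0.28 to 0.18 for miR-30b-5p and -0.074 to 0.21 for miR-30c-1-3p at 24 h, and -0.37 to 0.10 for miR-30b-5p beyond 0 h. It gave -0.18 to 0.033 for the change of miR-30b-5p in Ikaros samples and -0.18 to 0.31 for the miR-30b arm difference. The cause was not tested, except that the medians of the Ikaros samples at 24 h are lower by 0.23, which subtraction adds to each difference. The medians and the low-value filter were not run for arm differences, nor the restriction to the groups compared for the interaction. Without counts, the counting error of the low miR-30e-5p and miR-30d-5p could not be given.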
